A study of Mus musculus with 6 samples.

Results

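Among cells of the mouse cortex after stroke, 169 cells carried very high amounts of major histocompatibility complex (MHC) class II transcripts, and they made up 0.954% (0.816 to 1.11%) of the 17717 cells that passed the quality limits. A cell was included when the class II genes H2-Aa, H2-Ab1 and H2-Eb1 and the invariant chain gene Cd74 together held at least 1% of its unique molecular identifiers (UMIs), the tags that let each captured RNA molecule be counted once. It had to show fewer than 3 of 6 border macrophage genes (Mrc1, Cd163, Pf4, Lyve1, F13a1, Cbr2) and fewer than 3 of 6 genes of monocytes and monocyte-derived macrophages, among them Ccr2, Ly6c2, Plac8 and Fn1. Genes of microglia (P2ry12, Tmem119, Siglech), endothelium (Cldn5, Flt1) and smooth muscle (Acta2, Tagln) each had to stay under 0.1% of the UMIs, and the B lymphocyte genes Cd79a, Cd79b and Ms4a1 at 1 UMI or fewer. All cells had at least 1500 UMIs, at least 200 genes and at most 10% mitochondrial UMIs. All intervals here are exact 95% intervals that cover counting error only.

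The cells came from male mice of 8 to 12 weeks on a C57bl/6 background that were heterozygous for RGS5::GFP, a knock-in in which GFP replaces one copy of Rgs5. All animals underwent permanent occlusion of the middle cerebral artery, and none of the libraries came from an animal without stroke. Live cells other than mature neurons were taken from the stroke-side (ipsilateral) cortex or from the matching contralateral cortex at 1, 12 or 24 h, which gives 6 groups of 1 droplet 3′ RNA library each. By the labels, the libraries at 1 and 24 h were made with the v3 kit with single indexes and those at 12 h with the v3.1 kit with dual indexes, whereas the methods name the v3.1 kit for all. Libraries of 1 and 12 h were read on a NovaSeq and those of 24 h on a HiSeq sequencer, so neither kit nor sequencer can be told apart from the time. The matrix numbers its libraries 1 to 6, and the sources used here do not tie a number to a group, so each value is given by library number and no statement is made about a hemisphere or a time. Without known conditions, no test was made, and cells were not treated as replicates.

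Class II molecules are dimers that display peptides from engulfed material to CD4 T lymphocytes, and dendritic cells, macrophages and B lymphocytes carry them. In the endosome, the invariant chain encoded by Cd74 fills the groove until cathepsin S degrades it, after which H2-DM exchanges the remaining fragment for a peptide and H2-O restrains H2-DM. Conventional dendritic cells are divided into a type 1, which presents engulfed antigen on class I molecules, and a type 2, which favours CD4 T lymphocytes, and either type can mature, gain the receptor CCR7 and move to lymph nodes; in the healthy brain such cells are rare and sit at its borders, in the meninges and choroid plexus.

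Class II genes share promoter elements that the transactivator CIITA reads through factors bound to DNA, among them the X box, bound by the RFX complex, and the Y box, an inverted CCAAT element bound by NF-Y. The sequences are shown so that pathway genes described below, H2-DMb2, H2-Oa and H2-Ob among them, can be compared with the class II genes of the rule. Each line gives the 80 bases from 110 to 31 before the start of the gene in RefSeq on GRCm38.p6, in the direction of transcription, and capitals mark the Y box letters TGATTGG and the X box letters GNAAC directly followed by NGATG, where N is any base.
H2-Eb1: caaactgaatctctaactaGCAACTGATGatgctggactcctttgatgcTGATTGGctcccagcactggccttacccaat
H2-DMb1: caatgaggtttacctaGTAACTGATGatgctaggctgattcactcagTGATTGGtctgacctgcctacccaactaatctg
H2-DMb2: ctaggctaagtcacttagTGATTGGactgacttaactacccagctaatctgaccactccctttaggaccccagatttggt
H2-Aa: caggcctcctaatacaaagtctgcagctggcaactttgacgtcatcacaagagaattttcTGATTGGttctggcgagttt
H2-Oa: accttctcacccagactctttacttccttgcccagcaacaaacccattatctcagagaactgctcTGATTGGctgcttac
H2-Ob: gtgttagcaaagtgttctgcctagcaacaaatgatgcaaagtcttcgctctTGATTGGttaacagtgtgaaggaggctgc

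The 6 stretches lie on chromosome 17, at chr17:34305757-34305836 for H2-Eb1, chr17:34153081-34153160 for H2-DMb1, chr17:34145139-34145218 for H2-DMb2, chr17:34287854-34287933 for H2-Aa, chr17:34092269-34092348 for H2-Oa and chr17:34238795-34238874 for H2-Ob. H2-Aa is on the minus strand and the others on the plus strand. These 6 were chosen because they carry the letters, TGATTGG in all 6 on the strand of the gene and the X box letters in H2-Eb1 and H2-DMb1. H2-Eb2, not shown, also held both sets on the strand of the gene, the X box letters 132 and TGATTGG 102 bases before its start, and Rfx5 held TGATTGG on the opposite strand at 113 and 54 bases before its start. Searched on both strands over the 250 bases before a start, TGATTGG was present in 7.23% and the X box letters in 0.682% of 32851 promoter windows. In those windows neither set of letters was found for H2-DMa, Ctss, Ifi30, Lgmn, Rfxank or March1 (Marchf1 in RefSeq) of the same pathway. The RefSeq table held 2 of the 4 class II genes of the rule (not H2-Ab1 and Cd74) and 12 of 15 pathway genes (not Ciita, Rfxap and Cd83), and a match of letters is a description, not a site.

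The number of class II high cells differed between the numbered libraries. Libraries 1 to 6 held 1, 3, 15, 48, 11 and 91 of them among 1192, 1402, 6023, 4346, 1922 and 2832 cells. The shares were 0.0839% (0.00212 to 0.467%), 0.214% (0.0441 to 0.624%), 0.249% (0.139 to 0.410%), 1.10% (0.815 to 1.46%), 0.572% (0.286 to 1.02%) and 3.21% (2.59 to 3.93%). Library 6 stood above every other library beyond counting error, and library 4 above libraries 1 to 3. Without library 6 the share over the remaining cells was 0.524%. Monocyte-derived macrophages, cells with 3 or more of the monocyte genes, were spread in a like way, with 0, 0, 3, 84, 2 and 118 cells in libraries 1 to 6. Microglia numbered 248, 314, 3058, 1367, 794 and 483. Median depth over all cells of a library lay between 4986 and 5616 UMIs, and the class II high cells were deeper, with medians of 11215, 9732, 7251, 8852, 8275 and 10445 UMIs.

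**Figure D1:**
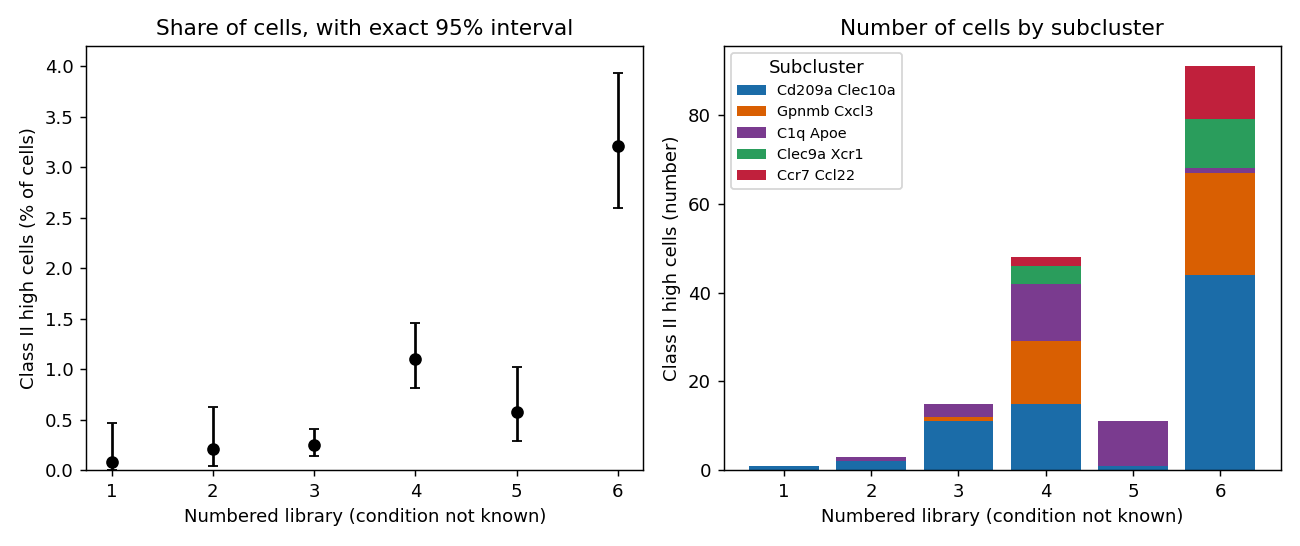
Left, class II high cells as a percent of the cells in each of the 6 numbered libraries (points) with exact 95% binomial intervals for counting error (bars). Right, the number of class II high cells in each library, stacked by the 5 subclusters described in the text; library 6 holds 91 and library 4 holds 48, and 10 of the 11 cells of library 5 belong to the subcluster with C1q and Apoe.

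Doublets and shared barcodes touched few of these cells. A doublet caller run within each library marked 2 of the 169 class II high cells, both in library 6, against 328 of all 17717 cells (1.85%). Over all cells, 27 barcode sequences occurred in more than 1 library, and 1 class II high cell had a barcode that also occurred elsewhere. The cells had a median of 9732 UMIs and 2260 genes, and together they held 1700126 UMIs.

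The class II genes chose the cells, so their levels are a description. The share of UMIs in the 4 genes ranged from 1.09 to 11.2% with a median of 4.37%. At the threshold, the lowest included cell had 1.09% and the fifth lowest 1.25%, while the highest cell left below the threshold had 0.991% and the fifth highest 0.781%. Of 295 cells at or above 1%, 60 had 3 or more monocyte genes, 42 had B lymphocyte genes, 17 had 3 or more border macrophage genes and 7 had microglia genes, with some cells in more than 1 of these sets. Cd74 stood at 21343 counts per 1000000 UMIs (CPM) over the summed cells, H2-Ab1 at 8435, H2-Aa at 7965 and H2-Eb1 at 7951. By library, Cd74 was at 38787, 35843, 34078, 25386, 18912 and 17930.1 CPM in libraries 1 to 6. It was highest in libraries 1 and 2, which had the fewest of these cells. Library 5, with 11 of them, was below libraries 3 and 4. In droplets with 1 to 50 UMIs, which hold free RNA, Cd74 was at 296 CPM.

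Of the markers named for these cells, Flt3, Cd209a and Ccr7 were not used by the rule. FLT3 is the receptor for the growth factor that sustains dendritic cells, CD209a is a lectin of type 2 dendritic cells and their monocyte-related kin, and CCR7 guides mature dendritic cells to lymph nodes. Flt3 was at 36.5 CPM (28.0 to 46.8) with a UMI in 41 of 169 cells (24.3%). Cd209a was at 258 CPM (235 to 284) in 48 cells (28.4%), and Ccr7 at 321 CPM (295 to 349) in 40 cells (23.7%). Thinned to 1500 UMIs per cell, 5.92, 16.0 and 14.8% of the cells had a UMI of Flt3, Cd209a and Ccr7. In 2369 endothelial cells, which should lack these genes and had a median of 3843 UMIs, the thinned shares were 0, 0 and 0.0844%.

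Few cells carried several of these markers. At their own depth, 73 of the 169 cells had no UMI of Flt3, Cd209a or Ccr7, 67 had 1 of the 3 genes, 25 had 2 and 4 had all 3. Cd209a and Ccr7 occurred together in 8 cells, and Cd209a and Flt3 in 18. Cd209a was at 1070, 412, 1076, 528, 254 and 45.7 CPM in libraries 1 to 6, so it was lowest in library 6, where most of the cells were. Without library 6, 44.9% of the cells had a UMI of Cd209a. Ccr7 was at 0, 0, 8.97, 265, 0 and 421 CPM in libraries 1 to 6, so nearly all of it came from libraries 4 and 6. A count of 0 allowed up to 267, 103 and 30.5 CPM in libraries 1, 2 and 5, where few cells were found. Flt3 was at 178, 0, 62.8, 49.7, 61.0 and 25.3 CPM in libraries 1 to 6.

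Clustering without the marker and rule genes divided the cells into 5 subclusters of 74, 38, 28, 15 and 14 cells. Their genes were used to find them, so the values that follow describe the subclusters and test nothing. The label of dendritic cells held for only part of the cells. The 2 smallest subclusters, 29 cells together, carried the markers of type 1 and of mature dendritic cells. The subclusters of 38 and 28 cells, 66 of the 169, were led by genes of macrophages. The largest, of 74 cells, had Cd209a and Clec10a but also oligodendrocyte genes among its leading genes. Of its 1663 UMIs of oligodendrocyte genes, 1543 came from 3 cells. This subcluster was given no cell type name. The cells are therefore called class II high cells. Some of the genes named below are also found in endothelium, so that a UMI in a few cells need not mark a cell type. After thinning, Zbtb46, Socs2, Tbc1d4, Isg15 and Apoe had a UMI in 6.63, 14.6, 22.9, 19.5 and 60.2% of endothelial cells and in 1.78, 3.55, 9.47, 14.2 and 30.2% of class II high cells.

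**Figure D2:**
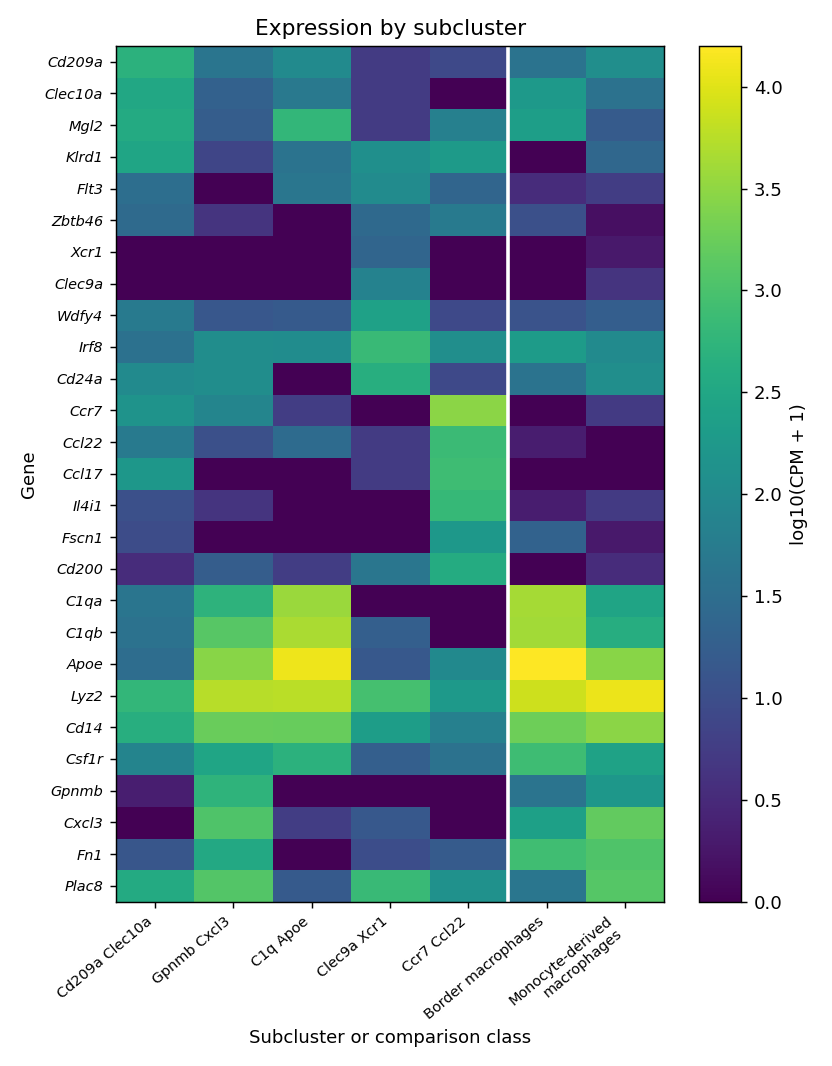
Expression of marker genes (rows) as log10(CPM + 1) of summed UMIs in the 5 subclusters of class II high cells (left of the white line) and in 122 border macrophages and 207 monocyte-derived macrophages (right of it). Clec9a and Xcr1 are brightest in the subcluster named for them, Ccr7, Ccl22 and Il4i1 in the smallest subcluster, and C1qa, C1qb and Apoe in the C1q Apoe subcluster and the border macrophages.

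The Cd209a Clec10a subcluster of 74 cells contributed 1, 2, 11, 15, 1 and 44 cells from libraries 1 to 6. Cd209a was at 491 CPM (444 to 541) with a UMI in 39 of the cells, and 12.0 times (8.52 to 17.4) the level of the other class II high cells. Library 6 gave 44 of the cells but only 46 of the 403 Cd209a UMIs, in 12 cells at 85.6 CPM, and the other 30 cells had 1261 CPM (1133 to 1399) in 27 of them. Clec10a, a galactose-binding lectin of type 2 dendritic cells and macrophages, was at 329 CPM (291 to 371) in 49 cells. Mgl2, its close paralog, was at 367 CPM in 23 cells, and at 918 CPM without library 6, where it stood at 76.3 CPM. Il1r2, a decoy receptor for interleukin 1, was at 487 CPM in 54 cells, and at 314 CPM in 16 of the 30 cells outside library 6. Klrd1, which encodes the CD94 chain known from natural killer cells, was at 289 CPM in 55 cells, at close to the same level in and outside library 6 (277 and 311 CPM). Of 6 type 2 markers compared, these lectin genes, 3 in all, were at least 2 times higher here than in the other class II high cells, beside 7.77% of 6588 genes. Of 12 macrophage markers 11 were lower, beside 7.70% of genes, with C1qa, C1qb and Apoe at 41.4, 37.8 and 30.5 CPM. Flt3 was at 31.7 CPM in 19 cells and Zbtb46, a transcription factor of conventional dendritic cells, at 26.8 CPM in 19 cells.

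Oligodendrocyte genes were among the leading genes of this subcluster, with Mal at 541 CPM, Cldn11 at 143, Mobp at 129 and Ermn at 119 CPM. Mal is not particular to oligodendrocytes, as 65.6% of thinned endothelial cells had a UMI of it. Of its 444 UMIs in the subcluster, 346 were in 1 cell and 432 in 3 cells. Of the 1885 UMIs of 7 oligodendrocyte genes in all class II high cells, 1543 came from the same 3 cells. Free RNA was rich in the same genes, at 19687 CPM summed over the 7. Ccl7, the leading gene by fold, came from 4 cells with 181.5 CPM, none of them in library 6, and 58 of its 149 UMIs were in 1 cell.

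The Gpnmb Cxcl3 subcluster of 38 cells came from libraries 3, 4 and 6, with 1, 14 and 23 cells. Its leading genes were Gpnmb, a glycoprotein of lipid-laden macrophages, at 543 CPM (464 to 631) in 10 cells, Cxcl3 at 1109 CPM in 6 cells, and Inhba at 174 CPM in 6 cells. Each thus rested on a minority of the cells. Gpnmb had 165 of its 169 UMIs in library 6, and was at 38.5 CPM in 1 of 15 cells outside it, while Cxcl3 had 9 of its 345 UMIs in library 6. In addition, 200 of the 345 UMIs of Cxcl3 in the subcluster and 458 of 693 UMIs of Slpi were in 1 cell. Lyz2, which encodes lysozyme, was at 5668 CPM in 37 cells and at 6538 CPM without library 6. Apoe at 2805 CPM in 32 cells, Apoc2 at 357 CPM in 24 and F10 at 315 CPM in 23 were lower without library 6, at 1365, 125 and 96.1 CPM. Against the other class II high cells, 8 of 13 macrophage markers and 5 of the 6 monocyte genes of the rule were higher, beside 12.2% of 6515 genes. Of those at 10 CPM or more in the other class II high cells, 7 of 12 and 2 of 3 were higher. Flt3 had no UMI in these 38 cells, which allows up to 9.64 CPM. The class II share of the cells had a median of 2.40%, the lowest of the 5 subclusters.

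The third subcluster, of 28 cells, was macrophage-like. Libraries 2 to 6 gave 1, 3, 13, 10 and 1 of its cells, so it held 10 of the 11 class II high cells of library 5 but 1 of the 91 of library 6. Apoe was at 12277 CPM (11806 to 12762) in 25 cells. The complement genes C1qa, C1qb and C1qc were at 3639, 4624 and 1925 CPM and were found in 26, 27 and 27 cells. Trem2 and Axl, receptors for lipids and for dying cells, were at 466 and 202 CPM, and the macrophage transcription factor Maf at 269 CPM in 18 cells. Mrc1, one of the excluded border macrophage genes, had a UMI in 21 of the 28 cells at 322 CPM, as the rule allowed up to 2 such genes. Ccr2, a monocyte gene of the rule, was at 547 CPM in 24 cells, and Flt3 at 43.2 CPM in 8 cells. Of the type 2 markers, Mgl2 and Klf4 were at least 2 times higher here than in the other class II high cells. Cd209a and Clec10a were lower. Retnla, the leading gene by fold, came from 1 cell alone, and 16 of the 22 UMIs of Ifnb1 were also in 1 cell.

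The fourth subcluster, of 15 cells, was type 1 dendritic-like, with 4 cells from library 4 and 11 from library 6. Clec9a, a receptor for dead cells, and Xcr1, the receptor for the chemokine XCL1, had UMIs in 11 and 4 of these cells and in no other class II high cell. Irf8 and Batf3, transcription factors needed for this lineage, were at 692 CPM (587 to 809) in 14 cells and 186 CPM (134 to 252) in 11. Naaa, which encodes a lysosomal amidase, was at 426 CPM in all 15 cells, Wdfy4, needed for cross-presentation, at 248 CPM in 14, and Flt3 at 106 CPM (68.2 to 158) in 11. Of 10 type 1 markers, 9 had a mean of at least 10 CPM over these cells and the other class II high cells. Xcr1, Clec9a, Itgae and Tlr3 were under 10 CPM in the others and so passed only by being high here. The remaining 5, Irf8, Batf3, Naaa, Wdfy4 and Ifi205, were at least 2 times higher here, beside 11.2% of all 6465 genes compared. Cadm1 had no UMI here. Without library 6, the 4 cells left had Irf8 at 396 CPM and Naaa at 644 CPM. Zeb2, a factor of the type 2 and macrophage lineages, was at 17.7 CPM in 1 cell. P2ry14, Btla and Zdhhc23 led by fold with 262, 129 and 129 CPM in 12, 12 and 13 cells. The cells were the deepest, with a median of 15222 UMIs.

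The smallest subcluster, of 14 cells, was mature dendritic-like, with 2 cells from library 4 and 12 from library 6. Ccr7 was at 3001 CPM (2715 to 3309) with a UMI in all 14 cells, 32.9 times (27.1 to 40.1) its level in the other class II high cells. Ccl22 and Ccl17, chemokines that attract T lymphocytes bearing CCR4, were at 730 and 782 CPM in 11 and 6 cells. The 2 cells of library 4 held 68 of 98 Ccl22 UMIs and 65 of 105 Ccl17 UMIs, and in the 12 cells of library 6 the levels were 265 and 353 CPM. Ccr7 was high in both libraries, at 2331 CPM in library 4 and 3126 CPM in library 6. Il4i1, an amino acid oxidase, was at 640 CPM in 11 cells, the calcium channel subunit gene Cacnb3 at 298 in 10, the signalling inhibitor Socs2 at 402 in 10 and Fscn1, which encodes the actin bundler fascin, at 171 in 6. Relb and Rel, subunits of NF-κB, were at 588 and 1452 CPM in all 14 cells. Tbc1d4, outside the marker list, was at 1065 CPM in all 14. Of 13 mature markers, 11 had a mean of at least 10 CPM, but Fscn1, Il4i1, Cacnb3 and Nudt17 were under 10 CPM in the other class II high cells and so passed only by being high here. The remaining 7, Ccr7, Ccl22, Ccl17, Socs2, Relb, Cd200 and Tmem123, were at least 2 times higher, beside 16.0% of 6350 genes. Il12b, a subunit of interleukin 12, and Apol7c had no UMI in any of the 169 cells.

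Whether these 14 cells stood apart depended on the clustering. They stayed together in each alternative, apart from 1 cell when the marker genes were kept. With resolution 0.3, with 15 principal components, or without the 3 cells rich in oligodendrocyte genes, they joined the Cd209a Clec10a cells in a subcluster of 91, 90 or 86 cells. The 15 type 1 dendritic-like cells stayed together in each of these alternatives, again apart from 1 cell when the marker genes were kept. The large subclusters were less compact: at resolution 0.8, 48 of the 74 Cd209a Clec10a cells and 29 of the 38 Gpnmb Cxcl3 cells stayed together.

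Against other immune cells, the class II high cells were compared with 16 border macrophages that met the same class II threshold (median 3.33%), with all 122 border macrophages, which line vessels and meninges, with 207 monocyte-derived macrophages, with 6264 microglia and with 58 B lymphocytes, each chosen by its own genes. Genes with a mean of at least 10 CPM over both classes were compared, and a gene was counted as higher or lower at 2 times. The class II border macrophages held 117515 UMIs in all, and a count of 0 in them allowed up to 25.5 CPM, so that comparison was the least precise.

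The 25 genes with the highest ratio to whichever comparator was highest included chemokines and lectin-type receptors. Ccl22 (88.2 CPM) had no UMI in B lymphocytes, against which it was at least 7.59-fold higher, and 1 UMI in class II border macrophages (ratio 10.4, 1.83 to 412). Klrd1 (177 CPM) had a UMI in 45.6% of the cells, and in 17.2% of them and 0% of endothelial cells after thinning. With no UMI in class II border macrophages, Klrd1 was at least 6.94-fold and Ccl17 (142 CPM) at least 5.55-fold higher than there. The related receptor genes Klrk1 and Klrb1b, at 90.0 and 87.6 CPM, were at least 3.53-fold and 3.43-fold higher than in the same cells. Klrd1 was at 0, 68.7, 197, 204, 10.2 and 185 CPM in libraries 1 to 6. Its level in the 3 libraries with most class II high cells thus lay close together, and in library 5, made up mainly of macrophage-like cells, it was low.

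The other genes of this set had ratios between 2.16 and 2.87 to the highest comparator, mostly the monocyte-derived macrophages. Tbc1d4 was 2.87 times (1.96 to 4.31) its level in border macrophages, but 143 of its 185 UMIs were in the 14 mature dendritic-like cells. The other class II high cells were at 26.8 CPM, against 38.0 CPM in border macrophages. Tnip3, an inhibitor of NF-κB signalling, was 2.86 times (2.39 to 3.43) that in monocyte-derived macrophages, and Il1r2 2.80 times (2.37 to 3.30). Against the same monocyte-derived macrophages, Itgax, which encodes the CD11c integrin chain of dendritic cells, was 2.50 times (1.87 to 3.37) higher at 84.1 CPM in 79 cells. Over the subclusters in order of size, Itgax was at 102, 129, 19.2, 48.8 and 29.8 CPM, highest in the Gpnmb Cxcl3 cells. Hmgcs1, an enzyme of cholesterol synthesis, was 2.84 times (2.16 to 3.78) higher than in the same monocyte-derived macrophages. Map3k14, the kinase of the alternative NF-κB pathway, was 2.57 times (1.91 to 3.51) higher and Psmb8, a subunit of the immunoproteasome, 2.17 times (1.95 to 2.40). Etv3, Slc25a20, Grasp, Cmtr1, Mmp12, Avpi1, Naaa, Grk3, Pkib, Olfm1, Cnn2, Nr4a3 and Cd209a completed the set.

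Markers shared by conventional dendritic cells were compared with border macrophages for 6 genes, Flt3, Zbtb46, Itgax, Kmo, Jaml and Cd24a. Flt3, Zbtb46 and Kmo were under 10 CPM in border macrophages and passed the limit only through the class II high cells. The other 3, Itgax, Jaml and Cd24a, were higher at 84.1, 79.4 and 129 CPM, beside 5.92% of 7227 genes. Itgax was at 129 CPM in the Gpnmb Cxcl3 cells, against 48.8 and 29.8 CPM in the type 1 and mature dendritic-like cells. Flt3 was 15.4 times (4.08 to 130) its level in border macrophages, which held 2 UMIs of it, and 7.69 times (3.91 to 16.8) that in monocyte-derived macrophages. Against class II border macrophages the Flt3 ratio was 2.14 with an interval from 0.569 to 18.1, and 3.35 (0.577 to 135) without library 3. Against monocyte-derived macrophages, the same 3 genes were above 10 CPM and Itgax and Jaml were higher, beside 6.10% of 6578 genes. Of 6 type 2 markers compared with border macrophages, Cd209a was higher, beside 5.92% of genes, and Sirpa and Klf4 were lower, beside 18.7%. After thinning, Clec10a and Mgl2 had a UMI in 26.2 and 18.9% of border macrophages, against 15.4 and 17.2% of class II high cells. Of 10 mature markers compared with border macrophages, 7 were under 10 CPM there. Of the remaining 3, Relb and Tmem123 were higher and Fscn1 was not. The 13 mature markers summed to 7730 CPM in the 14 mature dendritic-like cells and to between 101 and 569 CPM in the other subclusters, against 132 CPM in border macrophages. Ccr7 was at least 12.6-fold higher than in class II border macrophages and at least 90.2-fold higher than in all border macrophages. Without library 6, the first of these bounds was 4.88. B lymphocytes had more Ccr7 than the class II high cells, at 480 CPM (400 to 573) in 34 of 58 cells, a ratio of 0.668 (0.549 to 0.819).

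Over the summed class II high cells, macrophage markers were lower. All 13 were lower than in border macrophages by at least 2 times, beside 18.7% of genes, with a median log2 ratio of CPM + 1 of -2.36 against -0.26 over all genes compared. Apoe was at 0.111 times (0.107 to 0.115) and C1qa at 0.129 times (0.120 to 0.139) its level there. Against monocyte-derived macrophages 6 of 13 were lower, beside 6.64% of genes, among them Lyz2 at 0.181 times (0.174 to 0.187) and Cd14 at 0.256 times, while C1qb was higher. The rule kept border macrophage and monocyte genes under 3 each, and these comparators needed 3 or more. The lower levels therefore follow the choice of cells in part. The 13 markers summed to 32015 CPM in the macrophage-like and 14736 CPM in the Gpnmb Cxcl3 cells. They summed to between 499 and 1575 CPM in the other subclusters, against 43506 CPM in border macrophages. Macrophage genes in the class II high cells also differed by library. C1qa was at 0, 2234, 466, 814, 3089 and 182 CPM in libraries 1 to 6, highest in library 5 and low in library 6.

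Genes that work with class II molecules were higher than in border macrophages for 7 of 12, Ciita, H2-DMa, H2-DMb1, H2-DMb2, H2-Oa, H2-Ob and Ifi30, beside 5.92% of genes. H2-DMb2, H2-Oa and H2-Ob were under 10 CPM in border macrophages and passed the limit only through the class II high cells. Of the 9 that reached it there, 4 were higher. Lgmn and March1 were lower, beside 18.7% of genes. The border macrophages had not been chosen for class II, so this list follows the rule in part. Ciita, the transactivator of the class II genes, was at 85.3 CPM (72.0 to 100.4) in 70 cells. It was at 268, 172, 98.6, 26.0, 112 and 101 CPM in libraries 1 to 6, lowest in library 4. Against class II border macrophages, which met the same class II threshold, the ratio of Ciita was 1.25 (0.619 to 2.96), and it was 0.664 (0.307 to 1.64) without library 6 and 2.27 (0.761 to 11.2) without library 5. In that comparison 3 of 13 pathway genes were higher, H2-DMb2, H2-Oa and Ifi30, beside 13.6% of 6796 genes, and 2 were lower, Lgmn and March1, beside 22.1%. H2-DMb2 and H2-Oa were under 10 CPM there and passed the limit only through the class II high cells, and of the 10 pathway genes that reached it in the class II border macrophages, 1, Ifi30, was higher.

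H2-DMb2, a beta chain of H2-DM, was at 130 CPM (113 to 148), and 54.8 times (15 to 455) its level in all border macrophages and 17.1 times (10.3 to 30.5) that in monocyte-derived macrophages. It had no UMI in class II border macrophages and was at least 5.09-fold higher than there. H2-Oa, the alpha chain of H2-O, was at 82.9 CPM and 9.72 times (5.93 to 16.9) its level in monocyte-derived macrophages. These macrophages were not chosen for class II either (median share 0.0448%), so ratios of pathway genes to them also follow the rule in part. The 58 of them that met the class II threshold (median 3.31%) were not compared here. H2-Ob was at 31.2 CPM. B lymphocytes, the cells best known for H2-O, had 128 CPM of H2-Oa and 248 CPM of H2-Ob, and class II high cells carrying B lymphocyte genes had been left out. H2-DMb1 and H2-DMb2 are close paralogs, so reads may be split between them uncertainly.

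The pathway genes differed within the class II high cells. H2-Oa had a UMI in 44 of the 74 Cd209a Clec10a cells and 11 of the 15 type 1 dendritic-like cells, but in none of the 38 Gpnmb Cxcl3 cells and 2 of the 28 macrophage-like cells. H2-DMb2 was at 180, 12.9, 9.60, 106 and 320 CPM over the subclusters in order of size, and Ciita at 107, 16.1, 76.8, 115 and 74.5 CPM. The macrophage-like cells thus had Ciita at a level within the intervals of the type 1 and mature dendritic-like cells and H2-DMb2 far below them. Ctss, which encodes cathepsin S, and Lgmn, a lysosomal protease, were highest in the macrophage-led subclusters, with Lgmn at 614 and 475 CPM against 71.9, 71.0 and 22.3. Ifi30, a thiol reductase that opens disulfide bonds of antigens, was at 197 CPM in the macrophage-like cells and between 954 and 2152 CPM in the others. H2-DMb1 was lowest in the mature dendritic-like cells, at 223 CPM (151 to 319).

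**Figure D3:**
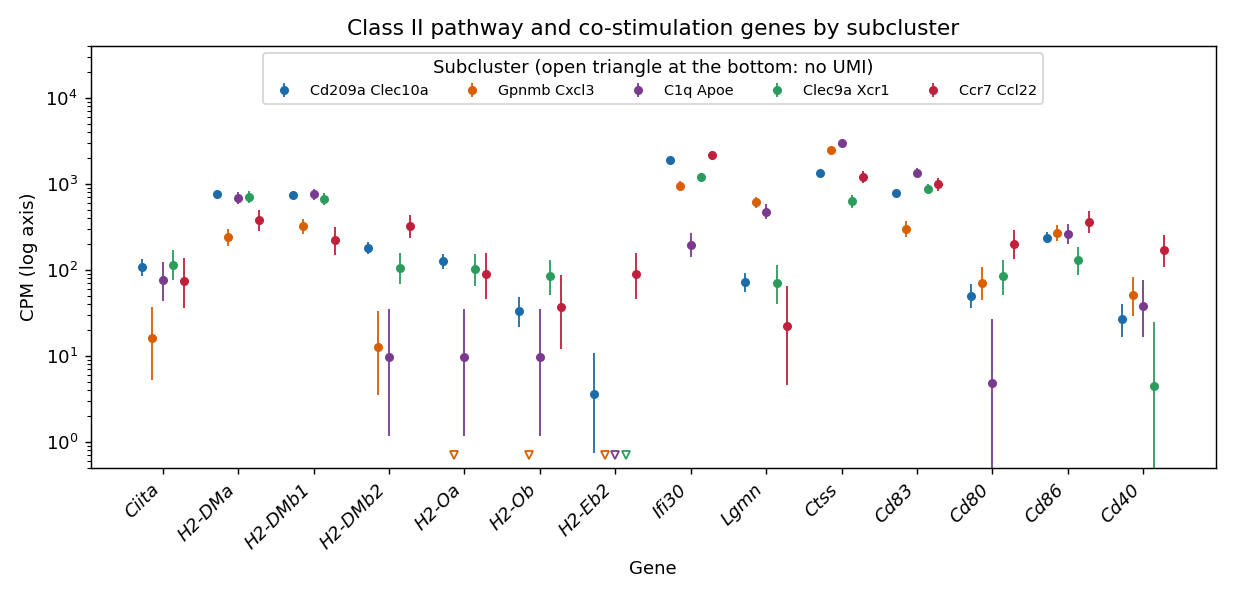
CPM (log axis, starting at 0.5) of class II pathway and co-stimulation genes in the 5 subclusters of class II high cells, coloured as named in the key. Points are CPM of summed UMIs with exact 95% Poisson intervals for counting error (bars, some reaching below the axis) and open triangles mark genes without a UMI; H2-DMb2 and H2-Oa are low or without a UMI in the Gpnmb Cxcl3 and C1q Apoe subclusters and present in the other 3.

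Co-stimulation and checkpoint genes were higher than in border macrophages for 7 of 11, Cd80, Cd40, Cd274, Pdcd1lg2, Cd200, Havcr2 and Tnfrsf9, beside 5.92% of genes. Of these 7, Cd40, Pdcd1lg2, Cd200 and Tnfrsf9 were under 10 CPM in border macrophages and passed the limit only through the class II high cells. Of the 7 compared genes that reached it there, 3 were higher, Cd80, Cd274 and Havcr2. Havcr2 peaked at 248 CPM in the type 1 dendritic-like cells. The other genes first named as higher were highest in the 14 mature dendritic-like cells. There Cd274, which encodes PD-L1, was at 417 CPM (315 to 542) in 11 cells and Pdcd1lg2, which encodes PD-L2, at 141 CPM (85.2 to 221) in 12. Cd200, an inhibitory ligand, was at 380 CPM in 9 cells, Cd80 at 201 in 10 and Cd40 at 171 in 6. Cd86 was found throughout, in 129 of the 169 cells at 242 CPM, against 311 CPM in border macrophages. Cd200 had a UMI in 2.37% of thinned class II high cells and 48.9% of thinned endothelial cells.

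In the class I pathway, 3 of 11 genes were higher than in border macrophages, Tap1, Psmb8 and Psmb9, beside 5.92% of genes. Tap1 moves peptides into the endoplasmic reticulum and the other 2 belong to the immunoproteasome. Psmb8 was at 1277 CPM (1134 to 1433) in the type 1 dendritic-like and 1236 CPM in the mature dendritic-like cells, and at 504, 331 and 250 CPM in the larger subclusters. Psmb9 was at 403 CPM in the type 1 dendritic-like cells and between 38.4 and 179 CPM in the others. The class I chain H2-D1 varied less, from 829 to 1556 CPM.

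Among cytokine genes, Il1b was the most abundant, at 2957 CPM (2876 to 3040) in 148 cells, which was 2.21 times (2.07 to 2.36) its level in border macrophages and 0.846 times (0.816 to 0.877) that in monocyte-derived macrophages. It was at 0, 1100, 914, 4734, 2662 and 2562 CPM in libraries 1 to 6, highest in library 4. Over the subclusters it lay between 2381 and 3811 CPM. Of 10 cytokine genes compared with border macrophages, Il1b was higher, beside 5.92% of genes, and 5 were lower, Tnf, Il1a, Il10, Il15 and Osm, beside 18.7%. Il1rn, the natural antagonist of interleukin 1, was at 665 CPM in the Gpnmb Cxcl3 and 544 CPM in the mature dendritic-like cells but at 70.7, 4.80 and 4.43 CPM in the others. Il12a and Il12b had no UMI in the 169 cells, which allows up to 1.76 CPM.

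Chemokines divided the subclusters. Of 14 compared with border macrophages, 4 were higher, Ccl5, Ccl17, Ccl22 and Cxcl16, beside 5.92% of genes, and 8 were lower, among them Ccl2, Ccl3, Ccl12 and Cxcl2, beside 18.7%. Ccl5, Ccl17 and Ccl22 were under 10 CPM in border macrophages and passed the limit only through the class II high cells. Of the 11 that reached it there, 1, Cxcl16, was higher. The macrophage-like cells had the highest levels of Ccl3 (3323 CPM), Ccl4 (5877 CPM) and Ccl12 (466 CPM), which attract monocytes and other leukocytes. Ccl12 had a UMI in 9 of the 28 macrophage-like cells, with 54 of its 97 UMIs there in 1 cell. Cxcl2, which attracts neutrophils, was at 6818 CPM (6468 to 7182) there and 6568 CPM (6286 to 6859) in the Gpnmb Cxcl3 cells, with overlapping intervals, and at 386, 483 and 156 CPM in the others. The mature dendritic-like cells had Cxcl16 at 1266 CPM in all 14 cells and Ccl5 at 1504 CPM in 6. Ccl5 was uneven, with 153 of its 327 UMIs over all class II high cells in 1 cell. Ccl17 was at 178, 0, 923, 166, 40.6 and 60.3 CPM in libraries 1 to 6, highest in library 3, where 10 of 15 cells had a UMI and none belonged to the mature dendritic-like subcluster.

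**Figure D4:**
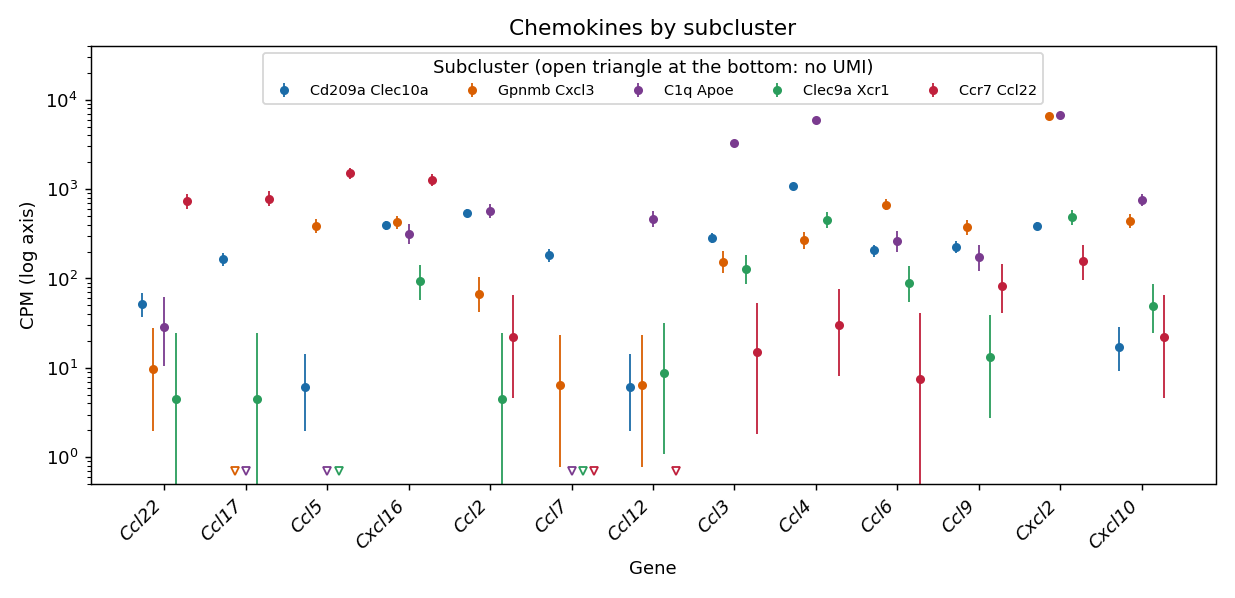
CPM (log axis, starting at 0.5) of chemokine genes in the 5 subclusters of class II high cells, coloured as named in the key. Points are CPM of summed UMIs with exact 95% Poisson intervals for counting error (bars, some reaching below the axis) and open triangles mark genes without a UMI; Ccl22, Ccl17, Ccl5 and Cxcl16 are highest in the Ccr7 Ccl22 subcluster, and Ccl3, Ccl4 and Ccl12 in the C1q Apoe subcluster.

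Csf1r, the receptor that sustains macrophages, was at 490 CPM in the macrophage-like and 289 CPM in the Gpnmb Cxcl3 cells and at 76.8, 17.7 and 37.2 CPM in the Cd209a Clec10a, type 1 dendritic-like and mature dendritic-like cells. Receptors for microbial patterns included none that was higher than in border macrophages among 14 compared, and 7 were lower, beside 18.7% of genes. Against class II border macrophages, 4 of 13 were higher, Clec4n, Clec4d, Clec4e and Ifih1, beside 13.6% of genes, and 6 were lower, beside 22.1%. The lectin receptor genes Clec4n and Clec4e, which sense fungal and mycobacterial sugars, were at 1019 and 717 CPM in the Gpnmb Cxcl3 cells. Fc receptor genes were lower than in border macrophages for 5 of 6, beside 18.7% of genes.

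Interferon-stimulated genes were present in part of the cells. Ifitm3 was at 2763 CPM in 157 cells. Isg15 had a UMI in 58 cells, at 789 CPM in the mature dendritic-like and 456 CPM in the macrophage-like cells, against 75.5 CPM in the Cd209a Clec10a cells. Of 13 compared with border macrophages, 2 were higher, Isg15 and Ifitm3, beside 5.92% of genes, and 3 were lower, Ifit2, Rsad2 and Usp18, beside 18.7%. Against class II border macrophages, 6 of 13 were higher, among them Isg15, Irf7 and Ifitm3, beside 13.6%, and 1 was lower, Ifi44, beside 22.1%. Of the 13, 5 were under 10 CPM there and entered only through the class II high cells, and of the other 8, 5 were higher. A list of 14 immediate-early and heat-shock genes, which also mark cell isolation stress, had none that was higher than in border macrophages. Of the 14, 9 were lower, beside 18.7% of genes. The heat-shock genes were Hspa1a and Hspa1b, and Hspa1a was the most abundant of the list in the class II high cells. The 14 genes summed to 34718 CPM in the macrophage-like cells and to between 10313 and 15087 CPM in the other subclusters. By library, they summed to 35984 CPM in library 5 against 13327 CPM in library 6. Their part in the differences between subclusters was not tested. Mki67, which marks dividing cells, had a UMI in 4 of the 169 cells.

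The rule itself limited Cd79a, Cd79b, Ms4a1, Cldn5, Flt1, Acta2, Tagln, P2ry12, Tmem119 and Siglech, so low values of these markers of other cell types were fixed by the choice of cells. All 6 fibroblast genes and 9 of 10 T and natural killer lymphocyte genes had no UMI, among them Cd3e, Nkg7 and Ncr1, and the latter list summed to 1.18 CPM. Of 10 B lymphocyte genes 6 had none and the list summed to 47.6 CPM, mainly Ighm, against 13646 CPM in B lymphocytes. Neutrophil genes summed to 18.2 CPM, with S100a8 the most abundant, and 3 of 8 had no UMI, against 5205 CPM in monocyte-derived macrophages. Endothelial, astrocyte and mural genes summed to 29.4, 31.8 and 1.76 CPM, the first mainly Pecam1, which macrophages also carry. Oligodendrocyte genes summed to 1109 CPM, at 535, 172, 260, 720, 183 and 1482 CPM in libraries 1 to 6, and all 7 were higher than in monocyte-derived macrophages, where 4 of them were under 10 CPM, beside 6.10% of genes. Against border macrophages 2 of the 7 were higher, Mog and Cldn11, beside 5.92% of genes, Mog being under 10 CPM there, and the sums were 1109 and 1108 CPM. B lymphocytes had 2445 CPM. All 10 microglia genes were detected, for a sum of 344 CPM, at 1359 CPM in the macrophage-like cells and 52.1 CPM in the mature dendritic-like cells. Plasmacytoid dendritic cell genes summed to 418 CPM with Bst2 the most abundant, while Ly6d, Pacsin1 and Klk1 had no UMI.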

How the data were processed

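Single cells were sequenced in 6 libraries, 1 for each side and time. The authors deposited unfiltered UMI counts per gene and barcode as 1 matrix from Cell Ranger 5.0.1, aligned per the labels to mm10, after the aggr step that evens sequencing depth between libraries, so that counts may already be thinned. The annotation is not given in the sources used here. By the study's methods 3 mice were used for this sequencing. Total counts over all barcodes of libraries 1 to 6 were 12427757, 12921334, 40793772, 32463365, 15436842 and 22775071 UMIs.

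The cells, gene lists and comparisons were chosen with earlier results of these data known. The 6 libraries were analysed as 1 pooled sample. UMIs were summed as CPM with exact Poisson intervals, shares had exact binomial (Clopper-Pearson) intervals and ratios exact conditional intervals. A count of 0 was given the limit of 3 counts, per class of cells or per library. Log2 ratios of lists used CPM + 1. Cell classes followed rules on marker genes, and 0 columns of other samples were present. Comparators needed 3 or more of the border macrophage genes, 3 or more of the monocyte genes without these, at least 0.3% of UMIs in P2ry12, Tmem119 and Siglech for microglia, or at least 3 UMIs of Cd79a, Cd79b and Ms4a1 for B lymphocytes, with the limits on other cell genes kept.

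Subclusters came from 1000 variable genes without 77 rule and marker genes, 10 principal components, 15 neighbours and Leiden clustering at resolution 0.5. They were called dendritic-like or macrophage-like from marker lists, and otherwise by genes among the 10 of highest fold. Clec10a and Cd209a ranked 4 and 9 in their subcluster and were type 2 markers, whereas Gpnmb and Cxcl3 were in no list. Doublets were called per library with Scrublet at an expected 6% and kept. Named genes were the rule genes and markers, members of each list with the highest values, the 25 with the highest ratio to the highest comparator (at least 50 CPM, UMIs in at least 4 libraries) and the 10 of highest fold in a subcluster (at least 100 CPM). Mki67 and genes named for being at 0 or in few cells were chosen after their values were seen. Values of some genes of the lists are not reported here. Promoter sequences were from RefSeq on GRCm38.p6. Steps were tested on simulated data. Python 3.11.15, numpy 2.4.6, scipy 1.17.1, pandas 2.3.3, scanpy 1.11.5, scikit-learn 1.9.0, leidenalg 0.10.2, igraph 0.11.9 and matplotlib 3.10.9 were used.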

Additional observations from a re-analysis of the deposited data

How the results depend on the processing

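Of 141 values under alternatives, 120 stayed within the interval of the reported value, or within 1.5 times a reported count, and 21 did not. With fewer than 2 genes of each excluded set, 85 cells remained (0.480% of cells), and without library 6, 78 (0.524%). Without library 3 the share was 1.32%. The Ccr7 bound against class II border macrophages was 21.7 and 8.97 at class II shares of 0.5% and 2%, 7.35 at 0 UMIs of B lymphocyte genes, 21.2 with fewer than 2 genes of each excluded set, and 11.1, 10.5, 9.25 and 4.88 without libraries 3, 4, 5 and 6. It moves with the size of the comparator, which had no Ccr7 UMI, and with the Ccr7 level of the class II high cells, highest in library 6 at 421 CPM. Cells thinned to 1500 UMIs had shares of 5.92% for Flt3, 14.8% for Ccr7 and 16.0% for Cd209a, and without library 6 the Cd209a share was 44.9%. The mature dendritic-like cells lay in a subcluster of 91 at resolution 0.3, 90 with 15 principal components and 86 without the 3 cells with oligodendrocyte genes, an alternative chosen after seeing the data. Genes at least 2 times higher than in class II border macrophages numbered 927, and 453 at a mean of at least 30 CPM, where fewer genes were compared. The Ciita ratio to class II border macrophages went from 1.25 to 0.664 without library 6 and 2.27 without library 5, and that of Flt3 from 2.14 to 3.35 without library 3. They rested on at most 8 and 2 comparator UMIs, and their intervals included 1 under each alternative that gave one. No paired analysis was possible because the library numbers are not tied to a side or a time. With 1 to 3 cells in libraries 1 and 2, their values could not show small differences.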
